A study of Mus musculus with 9 samples.

Results

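This account concerns 10 genes that move calcium out of the cytosol or release it from internal stores, among the 24487 rows of a table of mouse gene expression. The members were the rows named by the symbols Atp2a2, Atp2b1, Atp2b2, Atp2b3, Atp2b4, Slc8a1, Slc8a2, Slc8a3, Ryr2 and Itpr1, and each symbol named 1 row. RNA sequencing compared 4 libraries of dopaminergic neurons from the midbrain with 5 libraries of whole midbrain. All 9 libraries came from mice of the C57BL/6 background, and the labels give no age, sex, treatment or transgene for either group and do not say whether libraries came from separate animals or pools. The p-values therefore measure the spread between these libraries, which may be technical. How the dopaminergic RNA was isolated is not stated in the labels. The name of the table uses the term bacTRAP, a method in which tagged ribosomes of a chosen cell type are captured with their RNA. Any effect of the isolation cannot be told apart from the effect of cell type.

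Calcium enters neurons through channels and is cleared by several routes. Plasma membrane calcium ATPases, encoded by the Atp2b genes, and sodium-calcium exchangers, encoded by the Slc8a genes, carry it out of the cell, the pumps with high affinity and the exchangers with high capacity. The sarco/endoplasmic reticulum pump encoded by Atp2a2 loads it into the endoplasmic reticulum, and ryanodine and inositol trisphosphate (IP3) receptors let it out again. Many dopaminergic neurons of the substantia nigra fire on their own and admit calcium with each cycle, which makes the handling of calcium a much studied property of these cells.

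Sequence is shown here for 3 members whose transcripts differed most plainly between the groups or within a family: Ryr2, with the lowest remaining level in dopaminergic neurons, and the exchangers Slc8a1 and Slc8a2, which differed in opposite directions. Each run is the 250 bases before the gene's RefSeq start on GRCm38.p6, read 5′ to 3′ on the gene's strand. Capitals mark GGGCGG, the GC box bound by Sp factors, on either strand. The Slc8a2 start in RefSeq lies 474 bases upstream of the start in the expression table, and the other 2 starts coincide.
Ryr2, chr13:12106946-12107195, minus strand: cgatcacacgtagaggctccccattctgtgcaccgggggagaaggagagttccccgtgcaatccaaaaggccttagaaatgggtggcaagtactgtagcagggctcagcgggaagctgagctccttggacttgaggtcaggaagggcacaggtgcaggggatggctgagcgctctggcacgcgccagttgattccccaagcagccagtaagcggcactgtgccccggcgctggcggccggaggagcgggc
Slc8a1, chr17:81738388-81738637, minus strand: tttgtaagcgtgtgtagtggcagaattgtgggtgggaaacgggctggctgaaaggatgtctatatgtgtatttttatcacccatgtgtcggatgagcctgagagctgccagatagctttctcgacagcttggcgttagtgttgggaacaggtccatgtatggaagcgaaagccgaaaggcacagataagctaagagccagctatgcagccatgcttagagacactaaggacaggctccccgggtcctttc
Slc8a2, chr7:16129576-16129825, plus strand: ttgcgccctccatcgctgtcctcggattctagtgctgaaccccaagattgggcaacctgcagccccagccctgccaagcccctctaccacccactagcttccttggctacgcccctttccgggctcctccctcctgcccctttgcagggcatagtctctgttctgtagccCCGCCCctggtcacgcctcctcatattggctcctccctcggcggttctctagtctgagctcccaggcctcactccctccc
The Slc8a2 window held 1 GC box and the other 2 windows held none, while 32.7 percent of 32851 mouse promoter windows of this length held it. Neither AAAGGTCA, the element bound by Nr4a2 and its relatives (1.34 percent of windows), nor TGACG, the core of the cyclic AMP response element (17.8 percent), was found in these 3 windows on either strand. The box did not sort with direction over the members, since the 2 Atp2b1 windows held 4 and 3 and 2 of the 3 Atp2b2 windows held 1 each, and both genes were lower. A match or its lack is a description of these letters alone. Of the 10 members, 7 had an entry in the RefSeq promoter table.

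The values are FPKM, fragments per kilobase of transcript scaled to library size, so levels can be set beside each other per length. Th and Slc6a3, the enzyme and the transporter that define dopaminergic neurons, stood at 1619 ± 121 and 1181 ± 51.7 FPKM in dopaminergic libraries (SD, n = 4) and at 47.2 ± 2.84 and 71.0 ± 5.15 FPKM in whole midbrain libraries (SD, n = 5). All 41 tested glial and vascular markers, on 6 lists, were lower in dopaminergic neurons, and so were all 4 markers of GABAergic neurons. Of 4 glutamatergic markers 3 were lower and 1, Nrn1, was higher (153 ± 6.16 against 54.9 ± 8.70 FPKM). With Nrn1 included, their summed FPKM was higher in dopaminergic libraries, at 159 to 175 against 112 to 123. Estimated depth was 47.2 to 62.6 megareads in dopaminergic neurons and 16.4 to 33.6 megareads in whole midbrain, which puts an estimated 44.3 to 5409 fragments per kilobase behind each member value, if every column holds a single library's values. Whole midbrain library 2 stood apart. Over genes its log2 values correlated with the rest of its group at 0.903 to 0.906 (Pearson's r), whereas the other whole midbrain libraries correlated at 0.947 or more. It was the lowest library of its group for 8 of the 10 members.

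Most of these transcripts were scarcer in dopaminergic neurons than in whole midbrain, which contains those neurons too. Of the 10 members, 8 were lower, 1 was higher (Slc8a2) and 1 (Itpr1) was not called, by limma on log2(FPKM + 1) with Benjamini-Hochberg adjustment over 13106 genes and a threshold of 0.05. Over all genes tested, 36.0 percent were called lower and 38.3 percent higher, 74.2 percent in all. All 10 members passed the filter of a mean of 1 FPKM, and no member was at 0 in any library. The median log2 difference over the members was -1.10, against 0.04 over all genes tested. In 7 members every dopaminergic library lay below every whole midbrain library, and in 1 every dopaminergic library lay above. Over all genes tested, 31.8 percent were non-overlapping and lower and 32.6 percent non-overlapping and higher. Fewer cells of a type and less RNA per cell cannot be told apart in such bulk libraries. Log2 differences below are on the log2(FPKM + 1) scale, dopaminergic neurons minus whole midbrain, which understates the change of low genes.

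**Figure D1:**
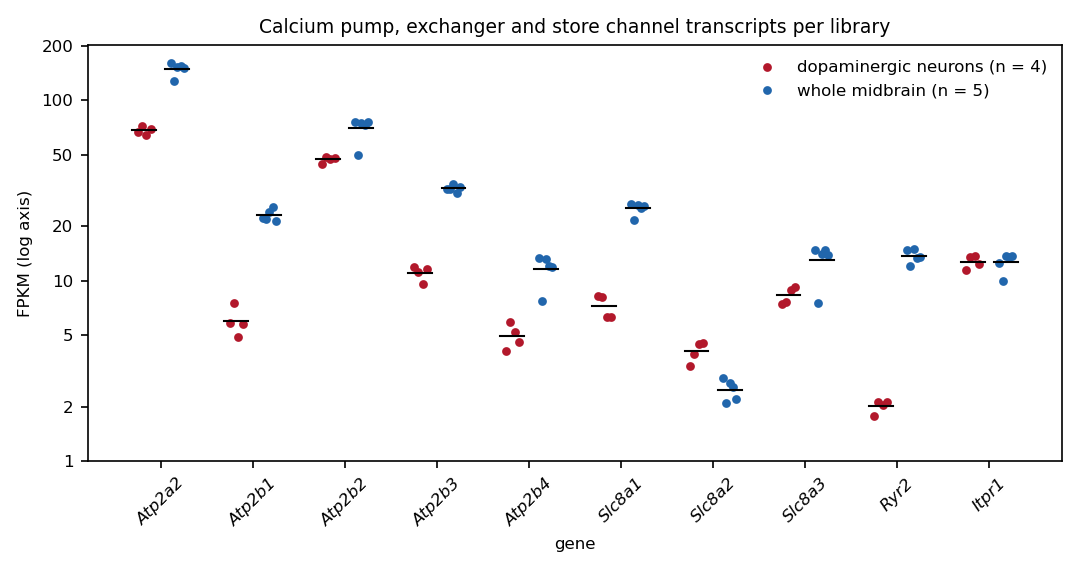
FPKM of the 10 genes in each library on a log axis, with dopaminergic neurons (4 libraries, red) left of whole midbrain (5 libraries, blue) for each gene and a bar at each group's mean. Ryr2 has the widest gap, the groups overlap for Itpr1 and Slc8a3, and Slc8a2 is the gene that is higher in dopaminergic neurons.

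The endoplasmic reticulum pump gene Atp2a2 (chromosome 5, 122453513 to 122502225, mm10) was the most abundant member in both groups. It stood at 66.5, 72.0, 64.4 and 69.6 FPKM in dopaminergic libraries 1 to 4, against 161, 129, 153, 156 and 152 FPKM in whole midbrain libraries 1 to 5. Even the lowest whole midbrain library, library 2, lay well above the dopaminergic ones. The mean was 2.20-fold lower in dopaminergic neurons, with a log2 difference of -1.13 ± 0.08 (SE; limma adjusted p = 9.6e-07). Its mean still ranked above 90.5 percent of tested genes in dopaminergic neurons, and above 97.4 percent in whole midbrain. An opposite-strand gene overlaps its exons over 83 bases.

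All 4 plasma membrane pump genes were lower. Atp2b2 (chromosome 6, 113745668 to 114042080) encodes a pump with high resting activity, known from cerebellar Purkinje cells and the hair cells of the inner ear. It stood at 44.4, 48.4, 47.4 and 48.2 FPKM in dopaminergic libraries, against 76.4, 49.7, 74.9, 73.1 and 76.1 FPKM in whole midbrain libraries. The groups did not overlap, but whole midbrain library 2 lay close above the dopaminergic libraries while the rest of its group were far above. Of the 4 pumps Atp2b2 kept the highest share of its whole midbrain level, 67.3 percent, with a log2 difference of -0.55 ± 0.13 (limma adjusted p = 0.0028). After correction for exonic length that call was lost, at -0.16 (adjusted p = 0.12).

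Atp2b1 (chromosome 10, 98915152 to 99026143), the broadly expressed pump, stood at 5.84, 7.49, 4.85 and 5.72 FPKM in dopaminergic libraries. Whole midbrain libraries had 22.4, 22.1, 23.9, 25.5 and 21.4 FPKM. The gap between the groups was many times the spread within either, and the mean was 3.86-fold lower in dopaminergic neurons (log2 difference -1.80 ± 0.11, limma adjusted p = 1.9e-07). Atp2b3 (chromosome X, 73503086 to 73573270), a pump largely of neurons, was at 11.9, 11.2, 9.53 and 11.6 FPKM, against 32.1, 32.2, 34.3, 30.7 and 33.2 FPKM in whole midbrain. Its mean was 2.94-fold lower (-1.48 ± 0.08, limma adjusted p = 7.5e-08), and whole midbrain library 2 did not stand apart for it. Atp2b4 (chromosome 1, 133702674 to 133753747), the remaining pump, was at 4.06, 5.88, 5.19 and 4.59 FPKM, against 13.4, 7.71, 13.3, 11.98 and 11.9 FPKM in whole midbrain. It was 2.37-fold lower (-1.08 ± 0.16, limma adjusted p = 0.00011).

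The mix of pumps differed between the groups, a measure that does not move when a library is scaled by a single factor. Quantile normalization is not such a factor, and shares were not computed under it. Log2 differences there were -1.85 (Atp2b1), -1.09 (Atp2b2), -1.69 (Atp2b3) and -0.99 (Atp2b4). Atp2b2 made up 67.1, 66.3, 70.8 and 68.8 percent of the summed pump FPKM in dopaminergic libraries, against 52.9, 44.5, 51.2, 51.7 and 53.4 percent in whole midbrain libraries. The groups did not overlap, and the difference was 17.5 percentage points. Atp2b1 held 8.62 ± 1.28 percent in dopaminergic neurons and 16.9 ± 1.98 percent in whole midbrain (SD, n = 4 and 5). Atp2b3 held 17.9, 15.4, 14.2 and 16.5 percent in dopaminergic libraries, against 22.3, 28.8, 23.5, 21.7 and 23.2 percent in whole midbrain libraries. Each of these 3 differences had an exact two-sided permutation p of 0.0159, the smallest that 4 against 5 libraries allow, and 0.0181 after Benjamini-Hochberg adjustment over the 8 shares and ratios compared. The share of Atp2b4, 7.12 ± 0.927 against 8.42 ± 0.933 percent, overlapped between groups and did not pass (exact p = 0.0794, adjusted 0.0794). It passed without whole midbrain library 2, at a difference of -1.68 points (adjusted p = 0.0286).

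The 3 exchangers differed from one another. Slc8a1 (chromosome 17, 81373105 to 81738387), the exchanger that also serves heart muscle, was at 8.25, 8.07, 6.29 and 6.31 FPKM in dopaminergic libraries, against 26.5, 21.7, 26.3, 25.4 and 26.1 FPKM in whole midbrain libraries. Its mean was 3.48-fold lower, with no overlap (log2 difference -1.68 ± 0.10, limma adjusted p = 2.1e-07). An antisense gene overlaps its exons over 296 bases, and no source states whether strand was kept. Slc8a2 (chromosome 7, 16130300 to 16160511), an exchanger of brain, was at 3.35, 3.92, 4.45 and 4.53 FPKM, against 2.87, 2.09, 2.70, 2.56 and 2.20 FPKM. Every dopaminergic library lay above every whole midbrain library, and the mean was 1.63-fold higher (0.54 ± 0.11, limma adjusted p = 0.0010), a call that was lost after rescaling to TPM.

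Slc8a3 (chromosome 12, 81197915 to 81333180), an exchanger of brain and skeletal muscle, was at 7.402, 7.64, 8.86 and 9.23 FPKM in dopaminergic libraries, against 14.7, 7.48, 14.1, 14.8 and 13.8 FPKM in whole midbrain libraries. Whole midbrain library 2 fell among the dopaminergic libraries and the other 4 lay above them all. The log2 difference was -0.56 ± 0.18 (limma adjusted p = 0.017). Without whole midbrain library 2 it was -0.73, and over the 9 fits that each left out a library its adjusted p ran from 4.0e-06 to 0.048.

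Slc8a1 led the exchangers in all 5 whole midbrain libraries, whereas in dopaminergic neurons it led in libraries 1 and 2 and Slc8a3 led in libraries 3 and 4. Slc8a1 made up 43.4, 41.1, 32.1 and 31.4 percent of summed exchanger FPKM in dopaminergic libraries, against 60.1, 69.4, 61.0, 59.4 and 61.9 percent in whole midbrain. Slc8a2 held 20.7 ± 2.43 percent in dopaminergic neurons and 6.14 ± 0.578 percent in whole midbrain, and Slc8a3 held 42.3 ± 3.85 and 31.5 ± 4.30 percent. For all 3 genes the groups did not overlap (exact permutation p = 0.0159 each, adjusted 0.0181). The ratio of Slc8a1 to Slc8a2 FPKM was 1.83 ± 0.524 in dopaminergic neurons and 10.2 ± 1.01 in whole midbrain.

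**Figure D2:**
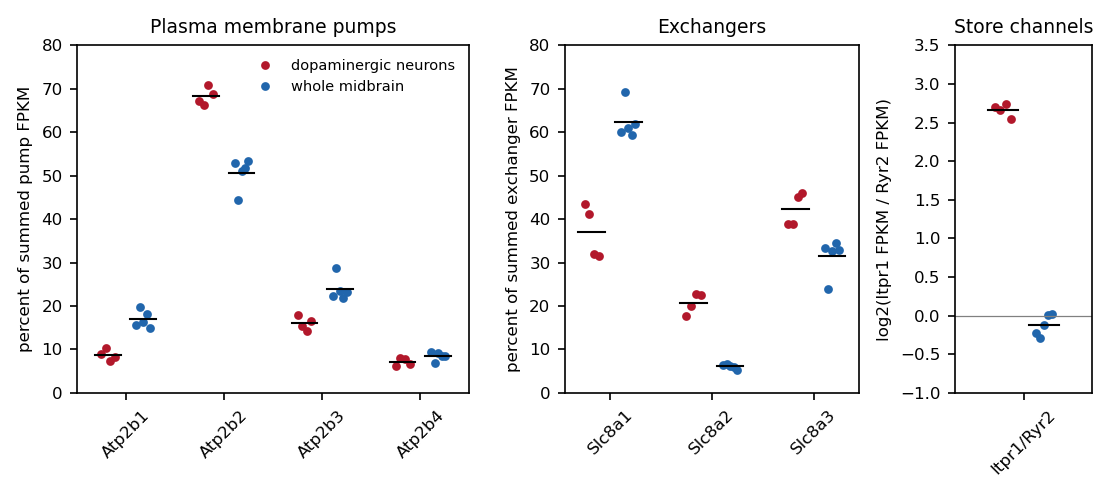
Share of each plasma membrane pump in the summed pump FPKM, share of each exchanger in the summed exchanger FPKM, and log2 of the Itpr1 to Ryr2 FPKM ratio, for each library, with dopaminergic neurons (4 libraries) left of whole midbrain (5 libraries) and bars at the means. Atp2b2, Slc8a2 and Slc8a3 hold larger shares in dopaminergic neurons, and the Itpr1 to Ryr2 ratio is separated by 2.79 log2 units.

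As deposited, Ryr2 had the largest log2 difference of the 10 members. The gene (chromosome 13, 11553103 to 12106945) encodes the ryanodine receptor of heart and brain, which opens when cytosolic calcium rises. It was at 1.76, 2.11, 2.05 and 2.11 FPKM in dopaminergic libraries, against 14.7, 12.1, 14.9, 13.4 and 13.5 FPKM in whole midbrain libraries. The mean was 6.84-fold lower, with a log2 difference of -2.29 ± 0.08 (limma adjusted p = 8.0e-09), and the dopaminergic libraries varied little. Itpr1 (chromosome 6, 108213096 to 108551116) encodes the main IP3 receptor of neurons, which answers receptors coupled to phospholipase C. It was at 11.5, 13.5, 13.7 and 12.3 FPKM in dopaminergic libraries, against 12.6, 9.90, 13.7, 13.5 and 13.6 FPKM in whole midbrain libraries.

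The groups overlapped for Itpr1, and no difference was called (0.01 with a 95% interval from -0.22 to 0.25, limma adjusted p = 0.91). That interval does not show equal levels. Opposite-strand genes overlap the Itpr1 exons over 181 and 108 bases. Within a library, Itpr1 stood at 6.51, 6.36, 6.70 and 5.85 times the Ryr2 FPKM in dopaminergic libraries, against 0.854, 0.818, 0.920, 1.01 and 1.01 times in whole midbrain libraries. The log2 ratio was 2.67 ± 0.0846 in dopaminergic neurons and -0.122 ± 0.138 in whole midbrain, a difference of 2.79 (exact permutation p = 0.0159, adjusted 0.0181).

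The order of levels per length also differed. In dopaminergic neurons it ran Atp2a2, Atp2b2, Itpr1, Atp2b3, Slc8a3, Slc8a1, Atp2b1, Atp2b4, Slc8a2, Ryr2. The ranges of Itpr1 and Atp2b3 overlapped, and so did those of each neighbouring pair from Slc8a3 down to Slc8a2. Within libraries, Slc8a1 stood above Atp2b1 and Atp2b4 above Slc8a2 in 4 of 4, Itpr1 above Atp2b3 and Atp2b1 above Atp2b4 in 3 of 4, and Slc8a3 above Slc8a1 in 2 of 4. In whole midbrain the order ran Atp2a2, Atp2b2, Atp2b3, Slc8a1, Atp2b1, Ryr2, Slc8a3, Itpr1, Atp2b4, Slc8a2, with overlapping ranges between Slc8a1 and Atp2b1 and between each neighbouring pair from Ryr2 to Atp2b4. Ryr2 was last of the 10 in every dopaminergic library. In whole midbrain it stood above Slc8a3 in 2 of 5 libraries, and without library 2 its mean, 14.1 FPKM, fell behind the 14.4 FPKM of Slc8a3. Summed by role, the plasma membrane pumps reached 69.0 ± 3.11 FPKM in dopaminergic libraries and 137 ± 14.4 in whole midbrain libraries, the exchangers 19.6 ± 0.437 and 40.7 ± 5.30, and the pair of store channels 14.8 ± 1.17 and 26.4 ± 2.56 (SD, n = 4 and 5).

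The scaling of the table moved the members. Summed FPKM lay between 506466 and 521822 in dopaminergic libraries. In whole midbrain it lay between 309275 and 313252, apart from library 2 at 409130. For TPM, small RNA and mitochondrial rows were set to 0 before rescaling and left out, so 12984 genes were tested. Their median log2 difference was -0.60. On that scale Slc8a2 stood at 0.00 (limma adjusted p = 0.99), which was 0.60 above the median gene, and Itpr1 was called lower at -0.67 (adjusted p = 0.0044), which was 0.07 below the median gene. Ryr2 was at -3.18 as TPM. Quantile normalization moved members by unequal amounts, with Atp2a2 at -1.82 and Atp2b2 at -1.09 but Slc8a2 at 0.90 and Ryr2 at -2.10. The 8 members called lower kept that call under every scaling tried.

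Transcript length moved with the differences too. Among 285 tested genes with at least 16 kilobases of annotated exons, the median log2 difference was -0.63 and 69.8 percent were lower, whereas among 3610 genes of 2 to 4 kilobases the median was 0.25 and 28.3 percent were lower. Ryr2, Slc8a1 and Itpr1 belong to the longest class, with 28.8, 18.8 and 18.3 kilobases. Atp2b1, Atp2b2 and Atp2b4 fall among 2070 tested genes of 8 to 16 kilobases, of which 53.0 percent were lower (median -0.32). The other 4 members fall among 4690 genes of 4 to 8 kilobases, of which 36.9 percent were lower (median -0.0076). A loess correction of each library for exonic length left Ryr2 at -1.488 (limma adjusted p = 1.8e-07), slightly behind Atp2b3 at -1.499, and Slc8a1 at -1.09 (8.3e-07), and raised Itpr1 to 0.59, which was then called higher (4.7e-05). Slc8a2 stayed at 0.55. The part of length in these differences was not tested further.

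**Figure D3:**
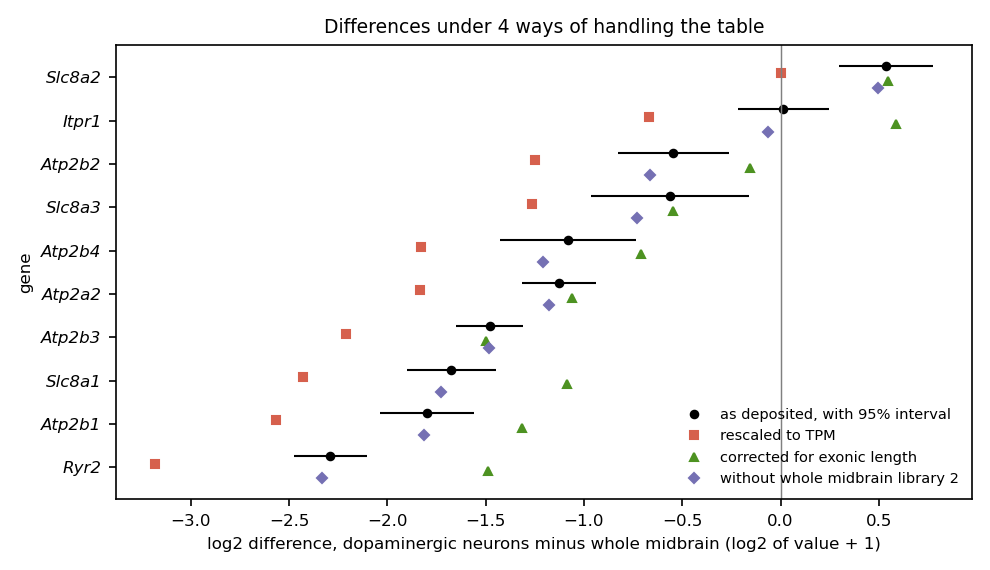
Log2 difference, dopaminergic neurons minus whole midbrain, of each gene as deposited (black, with the 95% interval of the limma fit), rescaled to TPM, corrected for exonic length, and without whole midbrain library 2. The TPM points lie to the left of the others for all 10 genes, and Slc8a2, Itpr1 and Atp2b2 are the genes whose call changes with the handling.

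Markers of other cell types, each as a share of its whole midbrain mean, can be set beside the members. Ryr2 kept 12.8, 15.4, 14.9 and 15.3 percent in dopaminergic libraries 1 to 4. The median of 8 oligodendrocyte markers stood at 8.69 to 17.5 percent over those libraries, that of 4 GABAergic markers at 18.6 to 23.8 percent, and that of 8 astrocyte markers at 4.08 to 6.37 percent. For 4 oligodendrocyte precursor markers it was 12.1 to 16.8 percent, and for 4 glutamatergic markers 12.4 to 22.4 percent. The summed oligodendrocyte markers came to 165, 236, 181 and 280 FPKM in dopaminergic libraries and to 2807 to 3316 FPKM in whole midbrain libraries. No oligodendrocyte, astrocyte or GABAergic marker was at 0 in all dopaminergic libraries. Ryr2 was at 1.76, 2.11, 2.05 and 2.11 FPKM in dopaminergic libraries 1 to 4. Library 1, lowest for that sum and for Ryr2, was also lowest of the dopaminergic libraries for Itpr1 (11.5 FPKM) but highest for Slc8a1 (8.25 FPKM). The members called lower other than Ryr2 stood at 25.9 percent (Atp2b1) to 67.3 percent (Atp2b2), above the median of every glial list. The part of carried-over RNA in the Ryr2 level was not tested.

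Because Itpr1 and Atp2b2 are abundant in the cerebellum, markers of Purkinje and granule cells were checked as well. Of 5 tested markers 4 were higher in dopaminergic neurons, and the summed FPKM of 8 ran from 88.1 to 106 in dopaminergic libraries and from 25.1 to 32.8 in whole midbrain. Calb1, which dopaminergic neurons also make, supplied most of that sum at 68.9 ± 6.38 FPKM. The others that were higher were Car8 (9.93 ± 0.533 FPKM in dopaminergic neurons against 3.43 ± 0.586), Cbln1 (13.6 ± 1.42 against 9.65 ± 0.587) and Ppp1r17 (1.57 ± 0.115 against 0.669 ± 0.196). Pcp2, at 2.24 ± 0.646 against 1.58 ± 0.809 FPKM, was not called. Gabra6, Cbln3 and Grid2ip were below the filter, and Gabra6, listed at 0 in all 4 dopaminergic libraries, was near 0 in whole midbrain too (0.0291 ± 0.0296 FPKM). The part of cerebellar RNA in the Itpr1 and Atp2b2 levels was not tested.

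**Figure D4:**
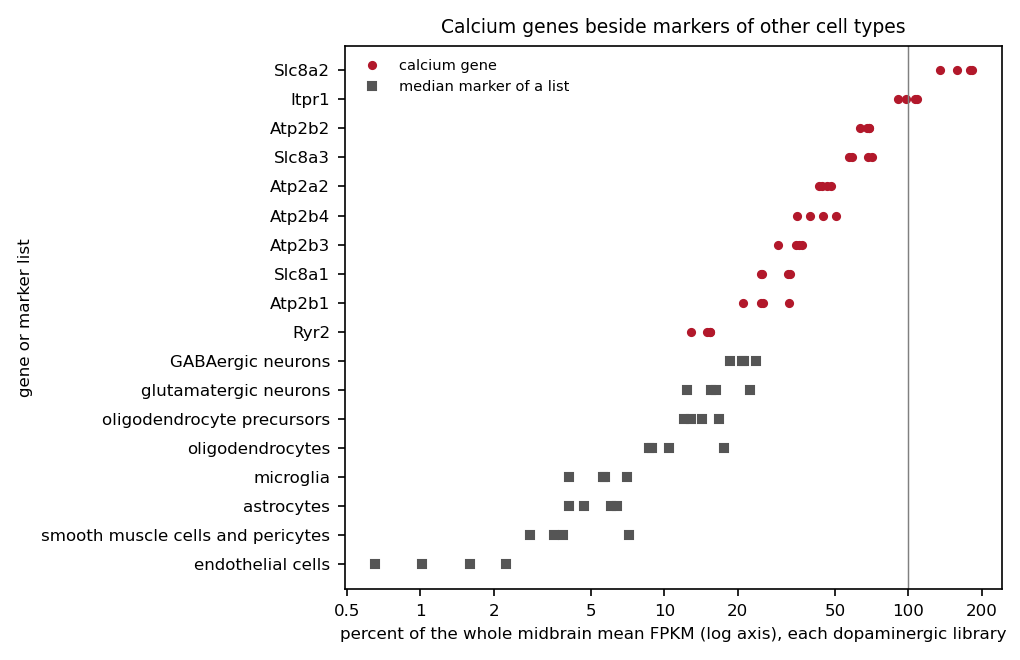
Level of each calcium gene (red circles) in each of the 4 dopaminergic libraries as a percent of its whole midbrain mean, on a log axis. Below them is the median percent of each marker list of other cell types (grey squares). The list of Purkinje and granule cells, at 214 to 250 percent for the median of its 5 tested markers, is not drawn. The 4 Ryr2 points, at 12.8 to 15.4 percent, lie in the range of the glutamatergic, oligodendrocyte and oligodendrocyte precursor lists, and the other 9 genes lie at or above 21.0 percent.

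The wider machinery of calcium handling was read from 11 lists of 109 genes, of which 88 passed the filter. Of these, 34 were higher and 39 lower, with a median log2 difference of 0.01, against 0.04 over all genes tested. The lists were chosen with results of these data known. As TPM the calls were 17 higher and 52 lower, when 15.9 percent of the 12984 genes then tested were called higher and 59.0 percent lower. The list counts given as TPM below are to be read against those shares, and the others against 38.3 percent higher and 36.0 percent lower.

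Release channels other than the members, and proteins that hold calcium inside the endoplasmic reticulum, were lower throughout. Of 6 tested store and endolysosomal channels all 6 fell (median -1.48), led by the polycystin Pkd2 (0.558 ± 0.165 FPKM in dopaminergic libraries against 6.18 ± 0.966 in whole midbrain libraries) and the ryanodine receptor Ryr3 (0.816 ± 0.197 against 5.33 ± 0.991). Their log2 differences were -2.20 and -1.79 (limma adjusted p = 1.6e-07 and 1.1e-06). Pkd2, Ryr3 and Itpr2 (0.331 ± 0.0528 against 3.13 ± 0.280 FPKM) averaged under 1 FPKM in dopaminergic libraries. They passed the filter only through whole midbrain, which fixed their direction. The other channels, Tpcn1, Tmco1 and Mcoln1, were at -1.33, -0.32 and -0.31. All 11 tested luminal calcium-binding proteins fell (median -1.06), among them the chaperone Hspa5 at 39.1 ± 1.86 against 95.7 ± 2.79 FPKM (-1.27) and the calsequestrin Casq2 at 0.0831 ± 0.0974 against 1.92 ± 0.293 FPKM (-1.43), with Casq2 listed at 0 in dopaminergic library 2. Casq2 too passed the filter only through whole midbrain. Under quantile normalization 5 of the 6 channels were called lower, and under median centring 4 of the 6 channels and 10 of the 11 luminal proteins were called lower.

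Of 6 tested genes for other endoplasmic reticulum pumps and their regulators 4 were higher and 1 lower, and as TPM 2 were higher and 2 lower. Mrln, listed as 2310015B20Rik and matched through RefSeq synonyms, encodes myoregulin, a small inhibitor of this pump known from mouse muscle, and its level averaged 22.7 ± 4.32 FPKM in dopaminergic libraries against 1.06 ± 1.05 in whole midbrain libraries (log2 difference 3.64, limma adjusted p = 2.4e-06). Sri, the calcium-binding protein sorcin, rose by 1.21. Pln, which encodes the pump inhibitor phospholamban, fell by 1.74 (0.286 ± 0.230 FPKM against 3.28 ± 0.647). Pln passed the filter only through whole midbrain, which fixed its direction. Atp2a3, counted as higher, passed it only through dopaminergic libraries (2.05 ± 0.336 against 0.930 ± 0.216 FPKM). The Golgi pump Atp2c1 and the Golgi ion transporter Tmem165 fell by 0.62 and 0.69.

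Among partners of the plasma membrane pumps, the calmodulin gene Calm3 and Pcp4, which encodes a calmodulin-binding peptide, rose by 1.29 and 1.77, with Pcp4 at 1564 ± 22.9 FPKM against 474 ± 147. Nptn, a subunit of these pumps, fell by 0.51, whereas Bsg, on the same list, rose by 0.40 (217 ± 25.7 against 163 ± 5.32 FPKM). Of the 6 genes 4 were higher and 1 lower, against 2 and 3 as TPM and 2 and 3 under quantile normalization. Of 3 tested exchangers outside the Slc8a family, the potassium-dependent exchanger Slc24a2 fell by 1.59 (21.2 ± 1.30 against 65.7 ± 4.05 FPKM). Slc24a3 rose by 0.74, a call that was lost under quantile normalization (0.32), upper-quartile scaling (0.50) and TPM (0.06).

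Of 12 tested partners of the release channels 5 were higher and 5 lower, against 3 and 7 as TPM, both near the shares over all genes. Fkbp1b, whose product binds and steadies the Ryr2 channel, averaged 206 ± 7.79 FPKM in dopaminergic libraries against 31.6 ± 9.01 in whole midbrain libraries, a log2 difference of 2.71 (limma adjusted p = 2.2e-07) beside the -2.29 of Ryr2 itself. Fkbp1a, its close relative, rose by 1.18. Ahcyl2, of the family of IP3 receptor binding proteins, and Erlin1, of the complex that removes activated IP3 receptors, fell by 0.81 and 0.76. Of 11 tested genes of IP3 production and removal 4 were higher and 5 lower, against 2 and 7 as TPM. The G protein Gna11, which couples receptors to phospholipase C, and Inpp5a, a phosphatase of IP3, rose by 1.29 and 1.06, whereas the phospholipase Plcd4 and the IP3 kinase Itpkb fell by 1.91 and 1.62. Plcd4, Plcb3 and Plcd1, all counted as lower, averaged under 1 FPKM in dopaminergic libraries and passed the filter only through whole midbrain.

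For store-operated entry 1 of 7 tested genes was higher and 2 were lower, against 0 and 5 as TPM. Orai3, a channel subunit, rose by 0.77, and as TPM this call was lost (0.18). Tmem110, a partner of the Stim proteins, fell by 0.42, a call lost under quantile normalization (-0.01). For mitochondrial uptake 6 of 10 tested genes were higher and 2 lower, against 3 and 3 as TPM, when all genes shifted lower. Smdt1, a subunit that the uptake channel needs, and Micu3, its enhancer in neurons, rose by 1.77 and 1.66, with Micu3 at 115 ± 5.30 FPKM against 36.0 ± 2.54. Mcur1 and the gatekeeper Micu2 fell by 0.996 and 0.49.

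Of 14 tested cytosolic calcium buffers and sensors 9 were higher and 3 lower, against 5 and 5 as TPM, when all genes shifted lower. Hpcal4, a neuronal calcium sensor, and Calb1, the buffer calbindin, rose by 2.84 and 2.56, with Hpcal4 at 175 ± 12.4 FPKM against 23.8 ± 3.73 and Calb1 at 68.9 ± 6.38 against 11.1 ± 2.80. S100a1 fell by 2.81 (13.7 ± 4.32 against 98.9 ± 10.9 FPKM), and the buffer parvalbumin, Pvalb, fell by 2.01, with a wide spread in whole midbrain (18.6 ± 4.47 against 85.7 ± 54.4 FPKM). Limma adjusted p for these 4 genes ran from 1.8e-08 to 0.00032.

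**Figure D5:**
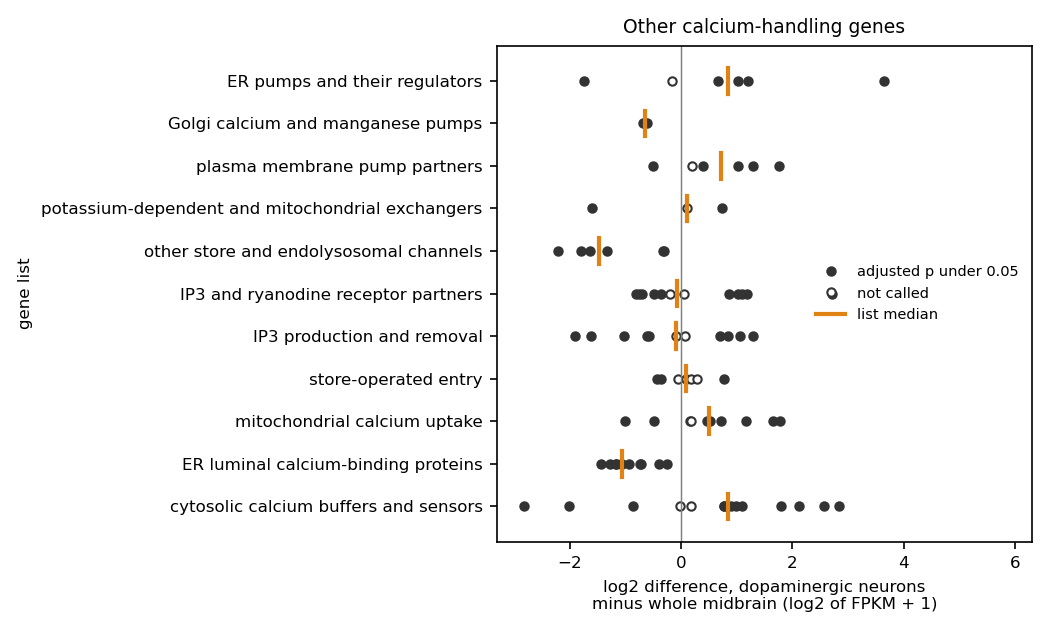
Log2 difference, dopaminergic neurons minus whole midbrain, of each tested gene of 11 lists of calcium handling (points, filled where the limma adjusted p was under 0.05) with each list's median as an orange line. Store and endolysosomal channels and luminal proteins lie wholly to the left of 0, and cytosolic buffers range from -2.81 to 2.84.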

How the data were processed

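RNA of 9 libraries was sequenced. Per the labels' protocols, cDNA was amplified from 2.5 ng of RNA, sheared to a target of 200 bp and sequenced as 100 bp single-end reads. The deposited values are FPKM made by the authors with Cufflinks. The tools were Cufflinks 2.1.1 and TopHat2 2.0.8 and the build mm10, per the submitters' processing notes. The annotation, options and strand handling behind them are not stated there. Dopaminergic values carry at most 6 significant digits and whole midbrain values up to 10, a difference in form that coincides with the groups. Whether whole midbrain values are means of several outputs is not known. If they are, their SDs would not be those of single libraries and their depth estimates would not hold. FPKM are not counts, so no count model was used.

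Groups were compared with limma 3.58.1 (R 4.3.3) on log2(FPKM + 1), with a mean-variance trend, for the 13106 genes averaging 1 FPKM or more, two-sided, with Benjamini-Hochberg adjustment over all of them. A gene averaging under 1 FPKM in 1 group passed the filter only through the other group, which fixed its direction. Many glial and vascular markers, and the glutamatergic markers Slc17a7 and Slc17a8, were of this kind, being low in dopaminergic libraries. The limma procedure was also run on simulated data in which few genes changed and noise was independent between libraries. That setting differs from these data, where most genes were called, so the simulation does not bear on the share called. Shares and ratios were compared by exact permutation (SciPy 1.17.1). Python 3.11.15, NumPy 2.4.6, pandas 2.3.3 and matplotlib 3.10.9 made summaries and figures. Depth was estimated from the lowest value of single-exon receptor genes, taken as 1 read with fragments of 200 bases. Exonic lengths came from GENCODE vM21 for 94.9 percent of tested genes. Table starts count from 0 and are printed from 1. The members and lists were chosen with earlier results of these data known. Named genes were the 10 members and, per calcium list, up to 2 largest rises and 2 largest falls that passed with groups that do not overlap. Th, Slc6a3 and the markers of Purkinje and granule cells were named as label or marker checks. Nrn1 was named as the glutamatergic marker that was higher, and Bsg as a pump partner that moved against Nptn. Alternatives were 2 other pseudocounts, 2 other filters, leaving out genes at 0, 4 scalings, no trend, a block for the replicate number, library weights, a length correction and leaving out each library.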

Additional observations from a re-analysis of the deposited data

Results flagged for a closer look

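In 9 of the 36 groups of values examined, 1 library lay far from the rest of its group, by Dixon's criterion at the 95% level, which chance meets in about 1 in 20 groups. In all 9 it was whole midbrain library 2. The 36 groups share libraries, and the shares are made from the member values, so the 9 flags are not independent. Their number cannot be weighed against 1 in 20. Atp2a2 was at 129 FPKM there, against 152 to 161 in the other whole midbrain libraries, and Atp2b2 was at 49.7 against 73.1 to 76.4. Atp2b4 was at 7.71 against 11.9 to 13.4 FPKM, Slc8a1 at 21.7 against 25.4 to 26.5, and Slc8a3 at 7.48 against 13.8 to 14.8. Among the shares in that library, Atp2b2 held 44.5 percent of the pump sum against 51.2 to 53.4 percent, and Atp2b3 held 28.8 against 21.7 to 23.5 percent. Slc8a1 held 69.4 percent of the exchanger sum against 59.4 to 61.9 percent, and Slc8a3 held 23.9 against 32.7 to 34.6 percent. Without this library the 8 members called lower and Slc8a2 stayed called, at -0.66 for Atp2b2 and -0.73 for Slc8a3. The cause of its position was not tested.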

How the results depend on the processing

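Of the 10 members, 7 (Atp2a2, Atp2b1, Atp2b3, Atp2b4, Slc8a1, Slc8a3 and Ryr2) kept their direction and call under all 22 alternatives. Atp2b2 lost its call after length correction (-0.16, limma adjusted p = 0.12). Slc8a2 lost it as TPM (0.0033), and the minimum mean of 5 FPKM left it untested. Itpr1, not called as deposited, was called higher after length correction (0.59) and lower as TPM (-0.67). Without a call its sign turned under quantile normalization (-0.067), upper-quartile scaling (-0.22) and library weights (-0.053), and with libraries left out in turn it ran from -0.066 to 0.059. Members called higher, 1 as deposited, numbered 0 as TPM, 0 with the minimum of 5 FPKM and 2 after length correction. Over all genes tested, TPM gave 2068 higher and 7667 lower among 12984, and the minimum of 5 FPKM gave 2493 lower among 8669. Other calcium genes called higher fell to 17 as TPM. The share of Atp2b4 differed by -1.68 to -0.97 points with libraries left out in turn, and passed without whole midbrain library 2. Shares and ratios were examined under only 10 alternatives, 9 of which left out a library. Neither length correction nor quantile normalization was among them. Within those 10 no other share or ratio changed its call. Libraries sharing a replicate number did not deviate together (r of deviations from group means -0.05 to 0.02 over 4 pairs). With the replicate number as a block Atp2b2 was at -0.51 (limma adjusted p = 0.02) and no member's call changed. All genes then numbered 4554 higher and 4355 lower. Where no value above shows the cause of a change, the cause was not tested. Depth limits Slc8a2 most, at about 44.3 fragments per kilobase in its shallowest library.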
